A study of Mus musculus with 6 samples.

Results

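Small proline-rich (Sprr) genes encode short precursors of the cornified envelope, the cross-linked protein layer under the surface of squamous cells. They were chosen by name, with earlier results of these data known, as 9 rows of the deposited table: Sprr1a, Sprr1b, Sprr2a1, Sprr2a2, Sprr2a3, Sprr2b, Sprr2d, Sprr2f and Sprr3, of 18988 rows in all. RNA of the stomach corpus, the glandular main body of the organ, was sequenced from 6 C57BL/6 mice, with 1 mouse per library. The controls were 3 Ras;APC FF mice (replicates 1 to 3), and 3 mice were PGC;Ras;APC FF (replicates 4 to 6), so that all 6 carried Ras;APC FF and the groups differed by PGC. The labels do not spell out PGC, Ras, APC or FF, and the promoter of any driver, the ages and any induction scheme are not given in the sources.

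Sprr proteins carry a central run of short proline-rich repeats between glutamine- and lysine-rich ends, which transglutaminases cross-link to loricrin, involucrin and other envelope proteins. The genes sit side by side in the epidermal differentiation complex. In the mouse stomach, stratified squamous epithelium lines the forestomach, whereas the corpus is glandular. Some members, Sprr2a among them, are also known from simple epithelia such as the intestine, where they have been described in responses to microbes and injury.

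Between 11465 and 12407 genes reached 1 FPKM (fragments scaled to gene length and to the mapped total of the library) in a library, and the number of reads is unknown. The libraries carried corpus markers at high levels: Pgc (pepsinogen C), Tff1 (trefoil factor 1) and Gkn2 (gastrokine 2) were at 16059 FPKM or more in every library. Replicate 6 had the lowest Pgc, at 16059 FPKM, against 78757 and 87455 in replicates 5 and 4 and 140325 to 194208 in controls. It was also lowest for Atp4a, at 427.7 FPKM against 1768 to 2884 in the other 5 libraries, and for Atp4b, at 723.3 against 3131 to 4614. Gif (558 against 1271 to 2890), Ghrl (722.6 against 2377 to 3197) and Chia1 (3234 against 6580 to 15683) were lowest there too. Muc6, Tff2, Muc5ac, Tff1, Gkn1 and Gkn2, also on the corpus list, were not lowest in replicate 6. Xist was at 0 and the Y-linked Ddx3y at 6.09 FPKM in control replicate 3, whereas Xist lay between 3.58 and 6.19 in the other 5 libraries, so sex was not balanced between the groups.

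The Sprr2a copies were among the most abundant transcripts of the corpus in both genotypes, and the other family members lay far below them. In order of control level, Sprr2a2 came first, followed by Sprr2a1, Sprr2a3, Sprr1a, Sprr2f and Sprr2b, and Sprr1b, Sprr2d and Sprr3 were listed at 0 in every control. FPKM are per length, which lets levels of different genes be set side by side. Among the Sprr2a copies this holds only loosely, since how reads were assigned to them is not stated. In controls the spreads of Sprr2a2 (3014 ± 489.6, SD, n = 3) and Sprr2a1 (2367 ± 693) overlapped, while Sprr2a2 stood above Sprr2a1 within every library. Sprr2a2 ranked 9 to 13 of all rows in each library, Sprr2a1 10 to 25 and Sprr2a3 30 to 358. Sprr1a ranked 240 to 1204.

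**Figure D1:**
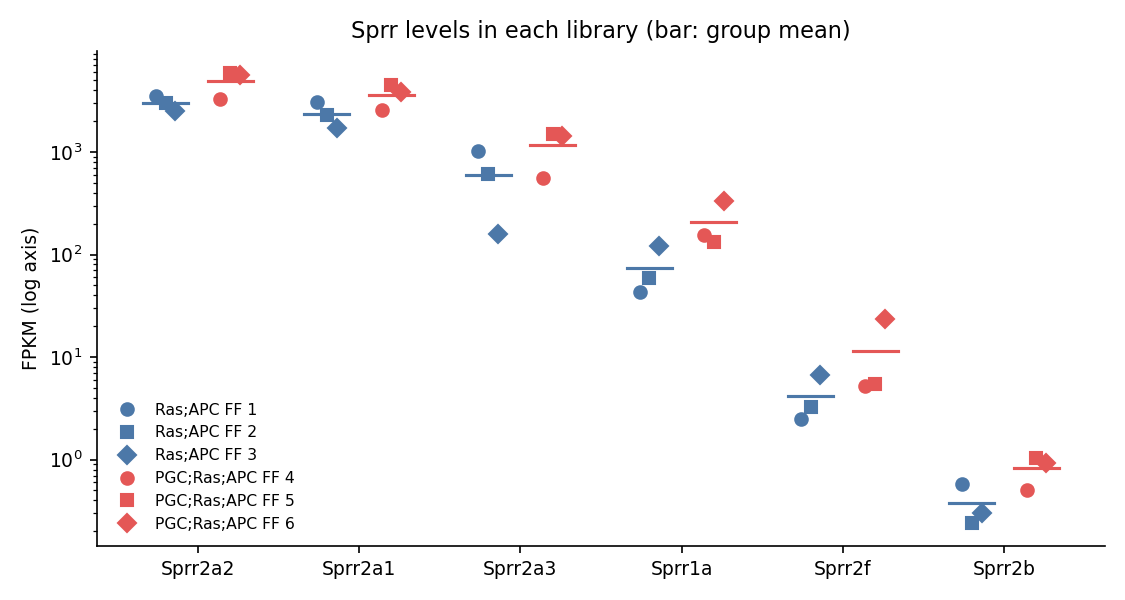
FPKM (log axis) of the 6 Sprr genes that were above 0 in every library. Each point is 1 library, marked by replicate, and each bar is the mean of 3 libraries of Ras;APC FF or PGC;Ras;APC FF. The groups are separated for Sprr1a, from 120.7 FPKM in the highest control to 133.8 in the lowest PGC;Ras;APC FF library, and overlap for the other 5 genes.

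The family occupies 284695 bases of chromosome 3 (92215799 to 92500493, GRCm38, the assembly also called mm10), where GENCODE mouse release M21 lists 17 Sprr symbols. Sprr2a1 (92215799 to 92221911), Sprr2a2 (92215920 to 92256724) and Sprr2a3 (92285417 to 92291405) open the cluster on the plus strand, followed by Sprr2b (92316620 to 92318085), Sprr2d (92339140 to 92340873) and Sprr2f (92365187 to 92366442). Sprr1b (92436809 to 92438789), Sprr3 (92456502 to 92458720) and Sprr1a (92483952 to 92485895) lie on the minus strand at the other end. The 3 Sprr2a copies are nearly one sequence: the longest annotated transcripts of Sprr2a1 and Sprr2a2 differed at 2 of 2867 aligned bases, and those of Sprr2a1 and Sprr2a3 at 31 of 2880. The annotated exons of Sprr2a1 and Sprr2a2 also share 43 bases of the genome. How reads that match several copies were assigned is not stated, so the level of a single Sprr2a copy is uncertain and the sum over the copies is the safer measure.

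The upstream sequences also fall into kinds. RefSeq windows on GRCm38.p6, from 250 to 51 bases before each annotated start, were found for 14 Sprr genes, the 9 members and 5 others (Sprr2e, Sprr2h, Sprr2i, Sprr2k and Sprr4). The window of Sprr2a1 (chr3:92215585-92215784, plus strand) was identical over 200 bases to that of Sprr2a2, and after a shift of 28 bases it matched that of Sprr2a3 over 172 bases. It is printed with those of Sprr1a (chr3:92485932-92486131, minus strand), the member whose groups did not overlap, of Sprr2f (chr3:92364937-92365136, plus strand), which was low but read in every library, and of Sprr2d (chr3:92338890-92339089, plus strand), which was nearly unread. All are 5′ to 3′, and capitals mark TGANTCA, a loose form of the AP-1 core TGA(C/G)TCA, and ATTTGCAT, the octamer.
Sprr2a1: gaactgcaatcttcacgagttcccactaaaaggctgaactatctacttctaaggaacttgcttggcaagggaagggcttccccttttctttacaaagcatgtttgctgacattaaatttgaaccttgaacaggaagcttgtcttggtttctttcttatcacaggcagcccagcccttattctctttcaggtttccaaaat
Sprr1a: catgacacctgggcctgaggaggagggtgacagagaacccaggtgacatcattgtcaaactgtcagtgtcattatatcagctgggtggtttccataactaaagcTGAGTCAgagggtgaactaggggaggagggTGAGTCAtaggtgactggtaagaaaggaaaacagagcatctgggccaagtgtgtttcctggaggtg
Sprr2f: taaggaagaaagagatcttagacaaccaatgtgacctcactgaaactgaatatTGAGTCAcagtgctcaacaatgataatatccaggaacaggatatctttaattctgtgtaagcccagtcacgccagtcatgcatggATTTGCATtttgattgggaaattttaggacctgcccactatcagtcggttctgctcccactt
Sprr2d: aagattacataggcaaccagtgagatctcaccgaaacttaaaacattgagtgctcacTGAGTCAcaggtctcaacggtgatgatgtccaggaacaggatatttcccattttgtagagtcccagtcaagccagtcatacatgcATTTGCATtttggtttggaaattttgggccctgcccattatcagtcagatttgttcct
The loose AP-1 form was searched on both strands (it reads the same on each) and was found in 9 of 14 Sprr windows, among them 5 of the 9 members, against 5.58% of 32817 windows of the same length over all genes. The match of Sprr1b, TGAATCA, fits only the loose form. The octamer, searched on both strands and chosen after the windows were read, was found in 7 of 14 Sprr windows and 3 of the 9 members, against 1.32% of all windows. No match of one overlapped the other. Sprr1a held 2 AP-1 cores and Sprr2f held 1 of each motif, as did the nearly unread Sprr2d, while the window of the abundant Sprr2a1 held neither. Only these windows were searched, so matches farther away or before other starts of a gene would be missed. The RefSeq window of Sprr2a2 (92250397 to 92250596) lies inside the span that GENCODE gives for the gene. The members share ancestry, so these windows are not independent, and a match is a string of letters and not a measured site.

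Summed over the 3 copies, Sprr2a stood at 7619, 5914 and 4400 FPKM in control replicates 1 to 3 and at 6391, 11845 and 10907 in replicates 4 to 6. Replicates 5 and 6 were above every control, whereas replicate 4 lay below control replicate 1, so the groups overlapped. The means were 5978 ± 1611 and 9714 ± 2916 FPKM (SD, n = 3 each). Sprr2a made up 96.8% to 99.4% of the FPKM summed over the 9 members, and the 9 members took 0.563% to 1.69% of all FPKM of a library.

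Sprr2a2 was at 3517, 2985 and 2539 FPKM in controls against 3289, 5866 and 5662 in replicates 4 to 6. Sprr2a1 was at 3084, 2317 and 1701 FPKM in controls against 2544, 4484 and 3808 in replicates 4 to 6. In both, replicate 4 lay inside the control range and replicates 5 and 6 above it. The mean differences on the log2(FPKM + 1) scale were 0.68 ± 0.33 (SE) for Sprr2a2 and 0.61 ± 0.34 for Sprr2a1 (0.40 without control replicate 3), given as descriptions, since the genes were chosen with this comparison known.

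Sprr2a3 was the most variable copy, at 1018, 611.8 and 159.7 FPKM in controls against 557, 1496 and 1437 in replicates 4 to 6. Control replicate 3 was 6.38-fold below control replicate 1, and replicate 4 lay between control replicates 3 and 2. The log2 difference of Sprr2a3 was 1.19 ± 0.68 (SE), and 0.43 without control replicate 3. Its share of the Sprr2a sum was 3.63% in control replicate 3 and 8.71% to 13.4% in the other 5 libraries, while Sprr2a1 held 34.9% to 40.5% throughout. Given the near identity of the copies, whether this share reflects the gene or the assignment of reads was not tested.

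**Figure D2:**
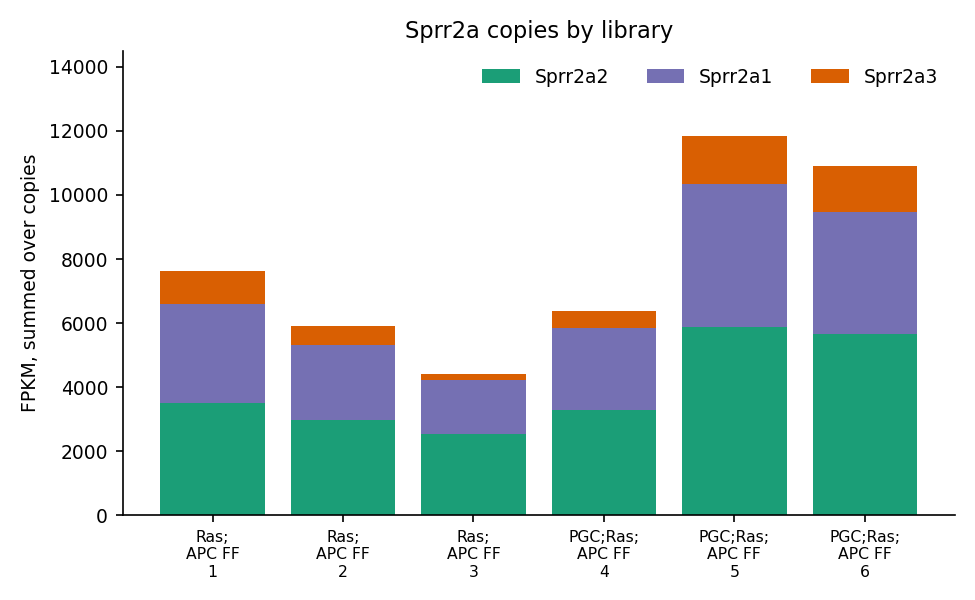
FPKM of Sprr2a2, Sprr2a1 and Sprr2a3 stacked for each of the 6 libraries. The stack reaches 7619 in the highest control and 6391, 11845 and 10907 in the PGC;Ras;APC FF libraries, and the Sprr2a3 segment is smallest in control replicate 3, at 159.7.

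Sprr1a, an envelope precursor also known to be induced in injured tissue, was the 1 member of 9 whose libraries did not overlap between the groups. It was at 42.8, 58.8 and 120.7 FPKM in control replicates 1 to 3 and at 156.8, 133.8 and 331.6 in replicates 4 to 6. The gap between the groups was narrow, since control replicate 3 and replicate 5 lay next to each other, and replicate 6 was far above the rest. The means were 74.1 ± 41.1 and 207.4 ± 108.2 FPKM (SD, n = 3 each), a log2 difference of 1.49 ± 0.44 (SE) and of 1.09 without replicate 6. Of all 11857 tested genes, 42.7% had each of replicates 4 to 6 above every control, and the comparison was the one that chose the members, so nothing is read from this count.

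Sprr2f, a low-level member of the Sprr2 group, was at 2.51, 3.25 and 6.67 FPKM in controls against 5.21, 5.49 and 23.8 in replicates 4 to 6. Replicates 4 and 5 lay below control replicate 3, and replicate 6 stood alone above all others. The log2 difference was 1.04 ± 0.54 (SE), and 0.39 without replicate 6.

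Sprr2b stayed near or below 1 FPKM, at 0.58, 0.24 and 0.3 in controls against 0.5, 1.04 and 0.92 in replicates 4 to 6, and the groups overlapped. Against the Sprr2a sum, its FPKM came to between 0.00406% and 0.00878% in every library, and whether some of its reads belong to the Sprr2a copies was not tested. Sprr3 was at 0.08 and 0.05 FPKM in replicates 4 and 5, Sprr1b at 0.03 in replicate 5 and Sprr2d at 0.04 in replicate 6, and each of these 3 genes was listed at 0 in its other libraries. Sprr1b and Sprr3 are characteristic of squamous epithelium. Among family symbols outside the 9, the table held Sprr2g, a polymorphic pseudogene next to Sprr2f that was listed at 0 in every control against 0.31, 0.18 and 1.82 FPKM in replicates 4 to 6, and Sprr2h, at 0.04 in replicate 6 alone. These made up all 11 Sprr rows of the table, and the other annotated Sprr symbols had no row.

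The median log2 difference over the 9 members was 0.61 (0.39 without replicate 6 and 0.40 without control replicate 3). The sign of Sprr1b, Sprr2d and Sprr3 was fixed by controls at 0. The median over the 11857 tested genes was 0.26, a set that holds 5 of the 9 members. With median-of-ratios scaling these medians were 0.30 for the members and -0.0027 for all tested genes. Of the 9, 5 passed the filter of at least 1 FPKM in at least 3 libraries, and these 5 were at 1 FPKM or more in every library. None of the 5 passed a limma adjusted p of 0.05, beside 0.152% of all tested genes, 18 of 11857. The 18 were 13 higher (0.11%) and 5 lower (0.0422%), and 35.4% had an unadjusted p under 0.05. This count is a description, because the members were chosen on the same comparison.

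The Sprr genes followed the libraries in 2 different ways. The Sprr2a sum was highest in replicate 1 and lowest in replicate 3 among controls, and highest in replicate 5 among PGC;Ras;APC FF libraries. Sprr1a and Sprr2f were in the reverse order in controls, lowest in replicate 1 and highest in replicate 3, and both were highest in replicate 6. Relative to the mean of the controls, replicate 3 stood at -0.41 for the Sprr2a sum, 0.83 for Sprr1a and 0.66 for Sprr2f on the log2 scale. Replicate 6 stood at 0.90, 2.28 and 2.35. Sprr1a therefore came to 0.562%, 0.994% and 2.74% of the Sprr2a sum in controls and to 2.45%, 1.13% and 3.04% in replicates 4 to 6, and the groups overlapped. Control replicate 3 is the library without Xist, and the part of sex in its position was not tested.

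**Figure D3:**
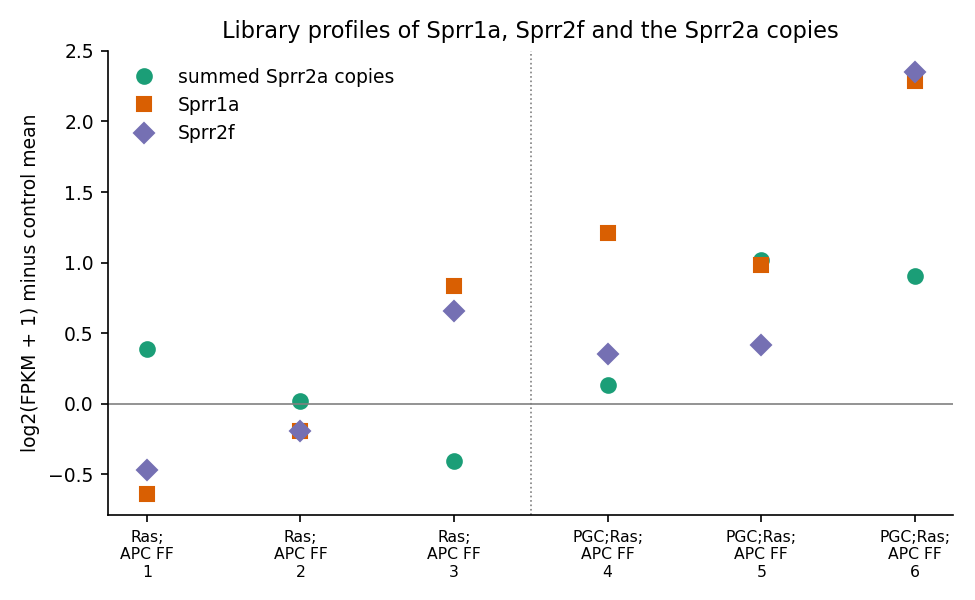
Summed Sprr2a copies, Sprr1a and Sprr2f in each library, as log2(FPKM + 1) minus the mean of the 3 Ras;APC FF libraries. In replicates 1 and 3 the Sprr2a points lie at 0.39 and -0.41 where those of Sprr1a lie at -0.64 and 0.83, and in replicate 6 Sprr1a and Sprr2f lie at 2.28 and 2.35 against 0.90 for Sprr2a.

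The genes whose profile was most like the mean of the 5 tested members, by the root mean square difference over 6 libraries of log2(FPKM + 1) minus the control mean, were Ube2c, a mitotic ubiquitin-conjugating enzyme (0.0756), Cdk1, the mitotic cyclin-dependent kinase (0.0916), and the kinase gene Pbk (0.0986). They were followed by Adra2a, Cdca3, Ccnf, B9d1 and Asf1b, at 0.124 to 0.133. Ube2c was at 21.02, 18.2 and 15.3 FPKM in controls against 26.7, 35.9 and 58.7 in replicates 4 to 6. These genes follow the mean profile by selection. That mean includes the near-identical Sprr2a copies and averages members whose order in controls differed. In replicate 3 the mean stood at -0.14, where Sprr1a stood at 0.83 and Sprr2a3 at -1.53.

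Markers of simple epithelium stood higher in the same libraries. In bulk tissue, more cells of a type and more RNA per cell cannot be told apart. All 7 simple epithelium genes listed had each of replicates 4 to 6 above every control, beside 42.7% of all tested genes (median log2 difference 0.84, none past a limma adjusted p of 0.05, 6 at an unadjusted p under 0.05, and 4 past the adjusted threshold without replicate 6 on genes filtered over all 6 libraries). In that last fit, 962 of the 11857 tested genes rose and 114 fell. With all 6 libraries, 35.4% of them had an unadjusted p under 0.05. One of the 7, Cldn7, was at 0.99, 0.74 and 0.82 FPKM in controls and passed the filter only through replicates 4 to 6. The simple keratins Krt19, Krt8 and Krt18 were at 1041 ± 96.4, 1017 ± 119.8 and 415.4 ± 12.4 FPKM in controls against 2049 ± 418.8, 1787 ± 288.3 and 776.5 ± 276.4 in replicates 4 to 6 (SD, n = 3 each, limma adjusted p = 0.085, 0.0872 and 0.0932). Per 100 FPKM of Krt19, Sprr1a came to 4.61, 5.41 and 10.9 in controls and to 9.34, 6.82 and 13.3 in replicates 4 to 6, and the groups overlapped. The Sprr2a sum per 100 FPKM of Krt19 was 819.4, 543.8 and 398.2 in controls and 380.5, 603.4 and 435.6 in replicates 4 to 6. With all values scaled to the mean of Krt8, Krt18 and Krt19, a setting chosen after seeing the data, the log2 difference was 0.63 for Sprr1a and turned to -0.19 for Sprr2a2 and -0.26 for Sprr2a1. That scaling put the median of all tested genes at -0.47.

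**Figure D4:**
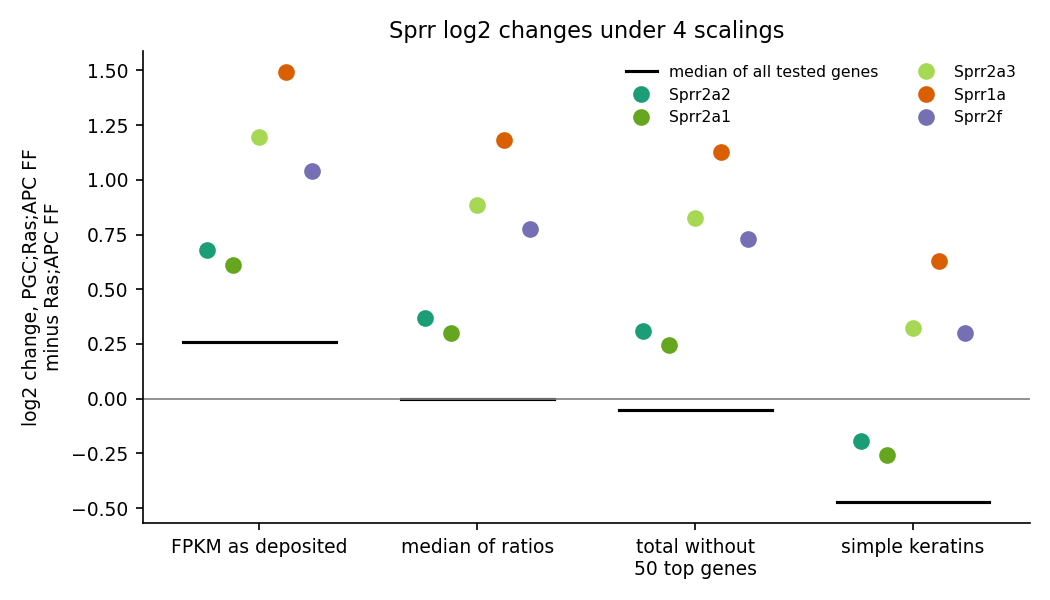
Log2 difference of PGC;Ras;APC FF minus Ras;APC FF for the 5 tested members under 4 scalings, with the median of all tested genes as a black line. Sprr1a goes from 1.49 on deposited FPKM to 0.63 when scaled to simple keratins, where Sprr2a1 and Sprr2a2 lie at -0.26 and -0.19 and the median of all genes at -0.47.

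Smooth muscle genes stood lower, with all 6 listed members below every control in each of replicates 4 to 6, beside 5.47% of all tested genes (median -1.28, none past the limma adjusted threshold, 6 at an unadjusted p under 0.05, 4 past the adjusted threshold without replicate 6 on genes filtered over all 6 libraries). In that last fit, 114 of the 11857 tested genes fell. Of all tested genes, 35.4% had an unadjusted p under 0.05, which is the share to set beside the counts of this paragraph. Their summed level was 1897 to 3438 FPKM in controls and 860.3 to 1269 in the other group. Actg2, a visceral muscle actin, averaged 732.1 ± 293.4 against 266 ± 64.6 FPKM, Acta2 578.7 ± 83.9 against 283.1 ± 65.7 and Tagln, an actin-binding protein, 580.1 ± 207.8 against 278.9 ± 23.96 (SD, n = 3 each). Of the 4 tested leukocyte genes none passed the limma threshold and 2 had an unadjusted p under 0.05 (median 0.64). The 7 leukocyte genes summed to 43.5 to 97.3 FPKM in controls and 55.6 to 189.9 in the other group. Lyz2 (lysozyme) was at 50.3 ± 26.9 and 97.6 ± 57.3 FPKM, Cd68 at 9.43 ± 2.12 and 15.95 ± 5.62 and Adgre1 at 2.36 ± 0.146 and 2.94 ± 0.901. Of 12 tested corpus epithelium genes none passed by limma and 2 had an unadjusted p under 0.05 (median -0.14). That median spans opposite shifts. Muc6 (63.1 ± 21.4 against 125.2 ± 41.8 FPKM) and Tff2 (2304 ± 627.6 against 6058 ± 4200) had each of replicates 4 to 6 above every control. Pgc (168300 ± 27010 against 60760 ± 38950) and Atp4b (4379 ± 281.3 against 2568 ± 1637) had each below. These were 2 and 2 of the 12, beside 42.7% and 5.47% of all tested genes, and the others overlapped. The part of these shifts in the Sprr levels was not tested.

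The squamous epithelium markers Krt5, Krt14, Trp63 and Krt4 were at or near 0 in the same libraries. The basal keratins Krt5 and Krt14 did not exceed 0.1 and 0.22 FPKM in any library, and Trp63, the p63 transcription factor of the squamous basal layer, did not exceed 0.01. Krt4, of the suprabasal layers, was at 0, 0.01 and 0 FPKM in controls against 0.37, 0.1 and 0.33 in replicates 4 to 6, against at least 4400 FPKM of summed Sprr2a in each of these libraries. Of the 28 squamous layer genes with a row, 14 stayed below 1 FPKM everywhere, and all 28 summed to 235.3 to 462.9 FPKM in controls and 441.4 to 1307 in the other group.

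**Figure D5:**
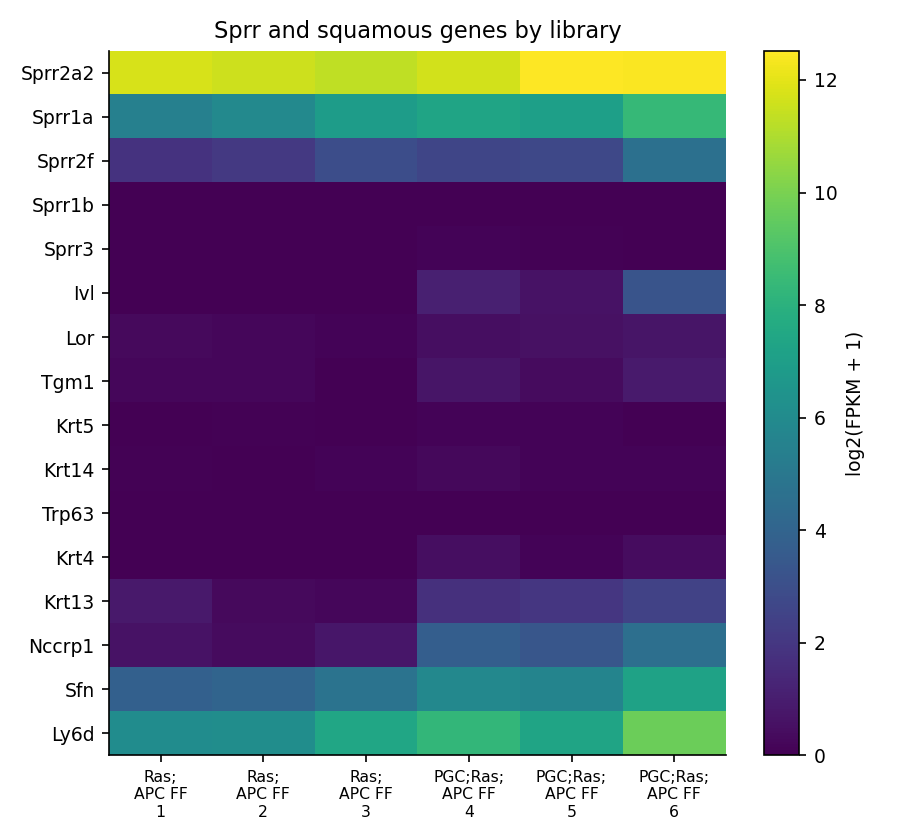
Level of Sprr genes, envelope genes and squamous epithelium genes in each library, coloured by log2(FPKM + 1). Sprr2a2 lies at 2539 FPKM or more in every library, whereas Krt5, Krt14, Trp63, Sprr1b and Sprr3 stay dark at or below 0.22 FPKM throughout, and Nccrp1, Sfn and Ly6d reach 23.0, 147.6 and 822.1 FPKM in replicate 6.

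Some other genes of the squamous layer list stood higher in replicates 4 to 6. Of 12 tested, 1 rose and 0 fell by limma adjusted over all genes (0.11% of all tested genes rose). An unadjusted p under 0.05 was found for 8 (35.4% of all tested genes), and 10 had a positive difference. The median was 1.29, beside 0.26 over all tested genes. The gene that rose was Nccrp1, an F-box-like protein abundant in squamous epithelia, from 0.54, 0.29 and 0.68 FPKM in controls to 12.4, 9.36 and 23.0 in replicates 4 to 6 (log2 change 3.32 ± 0.29, SE, limma adjusted p = 0.0103). Its controls all lay below 1 FPKM, so that it passed the filter only through the other group. The call was lost when any 1 control was left out, where the log2 change was 3.21 to 3.41 and 0 of all tested genes were called, and when no filter was used (3.32). Of the genes that did not pass, Ly6d, a surface protein of squamous cells, was at 67.5, 68.9 and 166.1 FPKM in controls against 308.5, 156.4 and 822.1 in replicates 4 to 6 (limma adjusted p = 0.0954). Sfn, the 14-3-3 sigma protein of epithelial cells, was at 13.4, 15.5 and 26.0 FPKM and at 55.6, 49.0 and 147.6 (adjusted p = 0.085). Mal, an apical membrane protein, was at 194.2 ± 59.1 and 226.5 ± 25.8 FPKM (SD, n = 3 each). Krt13, the partner of Krt4 in suprabasal cells, was at 0.83, 0.24 and 0.16 FPKM in controls against 2.34, 3.01 and 4.63 in replicates 4 to 6 (limma adjusted p = 0.085), and it too passed the filter only through replicates 4 to 6. Without replicate 6, on genes filtered over all 6 libraries, 6 of the 12 rose, beside 962 of all 11857 tested genes.

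The partners of Sprr proteins in the envelope were low. Of 15 other envelope precursors with a row, 14 stayed below 1 FPKM in every library, and 10 were at 0 in all controls. The exception was Ivl (involucrin, a transglutaminase substrate), listed at 0, 0 and 0.01 FPKM in controls against 1.14, 0.55 and 8.5 in replicates 4 to 6, with too few libraries at 1 FPKM to be tested. Lor (loricrin, the main envelope protein of the epidermis) was at 0.23, 0.16 and 0.08 FPKM and at 0.38, 0.5 and 0.63. Tgm1, the transglutaminase that joins envelope proteins in keratinocytes, was at 0.18, 0.15 and 0.03 FPKM and at 0.61, 0.31 and 0.89. Of 19 envelope assembly genes with a row 3 were tested, and by limma 0 rose or fell, beside 0.152% of all tested genes. An unadjusted p under 0.05 was found for 1 of the 3 (35.4% of all tested genes). With limma array weights 0 of the 3 were called, beside 3488 of all 11857 tested genes. Genes not tested, named after their values were seen, included Calml3, at 0, 0.02 and 0 FPKM in controls against 4.0, 0.95 and 2.77 in replicates 4 to 6. Asprv1 was at 0.07, 0.15 and 0.18 FPKM and at 2.6, 0.84 and 4.05. Klk6 and Abca12 went the other way, at 0.13 FPKM or less in every library. The plakins Evpl and Ppl, which form the scaffold of the envelope, were at 4.86 ± 0.840 and 1.11 ± 0.298 FPKM in controls against 5.71 ± 0.736 and 2.10 ± 0.864 in replicates 4 to 6, and Dmkn (dermokine) at 0.57 ± 0.414 and 3.00 ± 3.79, with 7.36 in replicate 6.

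S100 genes, whose calcium-binding products are encoded in or beside the same chromosomal complex, had control means from 0.04 FPKM (S100a7a) to 546.9 (S100a6). Of 13 with a row 8 were tested, and of these none passed the limma adjusted threshold. An unadjusted p under 0.05 was found for 6 (35.4% of all tested genes), and all 8 had a positive difference. Their median was 1.30, beside 0.26 over all tested genes. S100a6 was at 375.7, 513.4 and 751.5 FPKM in controls against 1111, 846.8 and 2331 in replicates 4 to 6 (limma adjusted p = 0.0954). S100a11, itself an envelope component in keratinocytes, was at 261.3, 261.3 and 232.0 FPKM and at 724.6, 645.7 and 1698 (adjusted p = 0.085). S100a1 was at 131.4 ± 42.3 and 185.9 ± 70.9 FPKM (SD, n = 3 each). Without replicate 6, on genes filtered over all 6 libraries, 2 of the 8 rose, beside 962 of all 11857 tested genes.

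Transcription factors known from work on Sprr and human SPRR promoters or on epidermal differentiation included no call. Of 13 tested, none passed the limma adjusted threshold, and 5 had an unadjusted p under 0.05, beside 35.4% of all tested genes. The median difference was 0.31, close to the 0.26 of all tested genes. Elf3, an epithelial ETS factor, was at 159.3 ± 7.95 FPKM in controls and 236.7 ± 73.8 in replicates 4 to 6 (SD, n = 3 each). The AP-1 subunit gene Junb was at 65.8 ± 8.37 and 107.9 ± 39.6 FPKM. Klf4, a factor of epithelial differentiation, was at 144.4 ± 25.9 and 144.5 ± 23.7 FPKM.

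Sprr2a has been described as a target of type 2 cytokines and of STAT3 in other mouse tissues, and the genes of these responses were mixed. Of 13 tested type 2 response genes 1 rose by limma and 4 had an unadjusted p under 0.05 (median difference 0.60). Of all tested genes, 0.11% rose by limma and 35.4% had an unadjusted p under 0.05. Alox15, an arachidonate lipoxygenase, rose from 0.34, 0.15 and 0.22 FPKM in controls to 25.5, 8.64 and 59.0 in replicates 4 to 6 (log2 change 4.33 ± 0.56, SE, limma adjusted p = 0.047). That call was also lost when any 1 control was left out (4.28 to 4.39), with median-of-ratios scaling (4.14), with quantile normalization (4.13) and without a filter (4.33), and Alox15 too passed the filter only through replicates 4 to 6. The chitinase-like gene Chil4 was at 17.2, 127.3 and 0.19 FPKM in controls against 0.66, 611.5 and 0.38 in replicates 4 to 6, so that replicates 2 and 5 were the highest of their groups. Mcpt2, a mucosal mast cell protease, was at 28.2, 35.4 and 8.08 FPKM and at 60.6, 109.9 and 189.9 (limma adjusted p = 0.085), and Clca1, of goblet and mucous cells, at 23.1 ± 8.45 and 74.7 ± 92.2 (SD, n = 3 each). For STAT3 and injury genes, 0 of 11 tested passed by limma and 5 had an unadjusted p under 0.05 (median 0.88). Lcn2, the siderophore-binding lipocalin 2, was at 1.3, 0.64 and 1.49 FPKM in controls against 56.7, 13.5 and 291.2 in replicates 4 to 6 (limma adjusted p = 0.085). Lrg1, a secreted leucine-rich glycoprotein, was at 7.42, 2.93 and 4.55 FPKM and at 12.7, 6.02 and 294.0. Reg3g, an antibacterial lectin, was at 4.31, 0.76 and 0 FPKM and at 6.9, 8.27 and 265.9. Replicate 6 was the highest library for Lcn2, Lrg1 and Reg3g, as it was for Sprr1a and Sprr2f, whereas the Sprr2a sum was highest in replicate 5. It was also the highest for Krt8, Krt18, Krt19, Sfn, Ly6d, S100a6, S100a11 and Ube2c, though not for Klf4 and Evpl, which were highest in replicate 5. A maximum in replicate 6 was therefore not particular to STAT3 and injury genes. With replicate 6 left out and genes filtered over all 6 libraries, 3 of the 11 STAT3 and injury genes and 1 of the 13 type 2 response genes rose. In that fit 962 of all 11857 tested genes rose, so nothing is read from these counts.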

How the data were processed

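The authors deposited FPKM per gene symbol, rounded to 2 decimals. STAR, featureCounts and the mm10 build are named, per the submitters' processing notes, while versions, annotation, strandedness and how FPKM were derived are not stated in the sources. Count models were not applied to these values. The 11857 genes that reached 1 FPKM in 3 or more of the 6 libraries were tested as log2(FPKM + 1), a scale that understates changes of low genes, with genotype as the 1 term, by limma 3.58.1 (eBayes with trend, two-sided) in R 4.3.3. Benjamini-Hochberg adjustment covered every tested gene (threshold 0.05). An exact test of 3 against 3 mice cannot go below 0.1, so the calls depend on limma's pooling of variance. Members and lists were chosen with earlier results of these data known. Genes were named by a rule: all members and family symbols with a row, per list up to 3 called genes or, where fewer than 2 were called, the 3 tested with the highest mean FPKM in the higher of the groups (which favours genes high in one group), a fixed set of envelope and squamous markers, and the 8 nearest profiles. Read numbers are unknown: the 24 5S rRNA copies in the table held identical values (0.01 and 0.02 FPKM in replicates 2 and 6), so single reads could not be resolved, and no counting interval is given. Gene positions are from GENCODE release M21 and upstream windows from RefSeq on GRCm38.p6. Transcripts were aligned with Biopython 1.88. Pseudocount, filter, scaling, variance model, weights and left-out libraries were varied.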

Additional observations from a re-analysis of the deposited data

How the results depend on the processing

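The median log2 difference over the 9 members (0.61) lay between 0.27 and 0.85 with other pseudocounts, scalings and single replicates left out. It was 0.052 with simple keratin scaling, a setting added after seeing the data, where it is the value of Sprr3, a gene at 0 in all controls. The summed member FPKM had a log2 ratio of 0.71, which lay between 0.32 and 0.94 elsewhere and turned to -0.20 with simple keratin scaling. The median over all tested genes moved from 0.26 to -0.0027 with median-of-ratios scaling and to -0.052 when the 50 most abundant genes were left out of the total. The count of 18 called genes was 34 with a pseudocount of 0.1, 9 without a filter and 3488 with array weights, and ranged from 0 (without replicate 1, 2 or 3) over 5 (without 4) and 458 (without 5) to 938 (without 6), or 1076 without replicate 6 on genes filtered over all libraries. The squamous layer count of 1 was 0 without a filter and 9 with array weights, and ranged from 0 to 5 without single replicates (4 without replicate 6, or 6 on genes filtered over all libraries). Rises and falls split 13 to 5 on deposited FPKM, 9 to 10 with median-of-ratios scaling, 10 to 10 with quantile normalization and 12 to 10 with a total without the top 50. The cause was not tested.

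Among genes named that were not called, the sign turned with median-of-ratios scaling, quantile normalization and the total without the top 50 for Klf4 (-0.30, -0.35 and -0.36), Evpl (-0.058, -0.070 and -0.11), Mal (-0.050, -0.099 and -0.11) and Adgre1 (-0.025, -0.030 and -0.065). It turned for Tff1 with the first and last (-0.013 and -0.071), and for Gkn2 with quantile normalization (0.31), array weights (0.115) and without replicate 3 (0.20). Klf4 turned without replicate 1 (-0.15) or 5 (-0.12), Chil4 without replicate 4 (1.05) or 6 (1.18), and Clca1 without replicate 6 (-0.22) or with array weights (-0.27). Without single replicates Klf4 ranged from -0.15 to 0.092, Chil4 from -2.11 to 1.18, Clca1 from -0.22 to 1.76 and Gkn2 from -0.34 to 0.20. No paired analysis was possible because the groups share no replicate number.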

Other observations

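The genes nearest to Sprr1a and to the Sprr2a sum were listed after the profiles were seen, and they follow these profiles by selection. Those nearest to Sprr1a by root mean square difference over 6 libraries were S100a14 (0.131), Tmem254c (0.155), Slpi, a secreted protease inhibitor (0.184), and S100a6 (0.213). S100a14 was at 13.5, 14.2 and 33.3 FPKM in controls against 41.9, 36.8 and 85.6 in replicates 4 to 6, and Slpi at 3.71, 3.98 and 9.55 against 13.02, 11.6 and 23.0.

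The genes nearest to the Sprr2a sum were Spdef, a transcription factor of mucous secretory cells (0.101), Clca3a2 (0.166), Spata24 (0.182) and the cyclin gene Ccnb1 (0.184). Spdef was at 29.3, 25.3 and 17.9 FPKM in controls against 27.1, 42.3 and 45.8 in replicates 4 to 6. Among the listed genes, Mcpt1, a mucosal mast cell protease named after its values were seen, was at 37.4, 34.3 and 2.82 FPKM in controls against 37.5, 125.3 and 57.7 in replicates 4 to 6, with its lowest value in replicate 3 and its highest in replicate 5.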
